A study of Mus musculus with 10 samples.

Results

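The genes examined here release arachidonic acid from platelet membranes, turn it into thromboxane or 12-hydroperoxy acids, and sense prostanoids. They are 10 genes fixed by name, Pla2g4a, Ptgs1, Ptgs2, Tbxas1, Tbxa2r, Alox12, Alox5ap, Ltc4s, Ptger3 and Ptgir, out of 53819 gene symbols counted per library. Platelet RNA of mice at P7 (taken to mean postnatal day 7) was compared with platelet RNA of adult mice, with 5 libraries at each age, lettered A, B, C, E and I for the P7 group but A, B, C, G and H for the adult group. The labels name no treatment or genetic change in either group and give no strain, sex or adult age, and they do not say whether a library came from 1 animal, from pooled animals or from repeated draws, so the spread behind each p-value is that between these libraries and may be technical. Platelets lack a nucleus and hold RNA passed on by the megakaryocyte that sheds them, and a difference in their RNA cannot be divided here into fewer RNA-carrying platelets and less RNA per platelet.

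On activation of a platelet, cytosolic phospholipase A2 (Pla2g4a) cuts arachidonic acid from membrane phospholipids. Cyclooxygenase-1 (Ptgs1) turns it into prostaglandin H2, which thromboxane synthase (Tbxas1) converts to thromboxane A2, and this lipid activates further platelets through the thromboxane receptor (Tbxa2r). The platelet 12-lipoxygenase (Alox12) acts on the same arachidonic acid and makes 12-HPETE, which peroxidases reduce to 12-HETE. Prostaglandin E2 promotes aggregation through the receptor EP3 (Ptger3), and prostacyclin from the vessel wall restrains platelets through its receptor (Ptgir). Cyclooxygenase-2 (Ptgs2) is the inducible isoenzyme of many nucleated cells, 5-lipoxygenase-activating protein (Alox5ap) presents arachidonic acid to 5-lipoxygenase in leukocytes, and leukotriene C4 synthase (Ltc4s) joins glutathione to leukotriene A4.

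The 250 bases before annotated starts are shown for the genes on which the results turn. They are the 2 starts of Pla2g4a, which differed most between the ages, the start of Ptgs2, its neighbour on the chromosome, which was at 0, and those of Ptgs1, Tbxas1 and Alox12. Sequences are from RefSeq (GRCm38.p6), 5' to 3' on the gene's strand. The sources used here give no genome build for the deposited counts, and counts per gene do not tell which start was used. Capitals mark exact matches, on either strand, to words bound by 4 kinds of factor. For GATA factors the words were AGATAA and likewise AGATAG, together with TGATAA and likewise TGATAG. The ETS word was GGAAGT, that of RUNX factors TGTGGT and that of the TATA box TATAAA.
Pla2g4a, chr1:149961291-149961540, minus strand: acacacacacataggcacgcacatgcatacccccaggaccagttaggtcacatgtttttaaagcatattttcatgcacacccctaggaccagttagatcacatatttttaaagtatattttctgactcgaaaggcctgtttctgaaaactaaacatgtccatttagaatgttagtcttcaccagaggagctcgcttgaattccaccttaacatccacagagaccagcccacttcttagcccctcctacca
Pla2g4a second start, chr1:149922440-149922689, minus strand: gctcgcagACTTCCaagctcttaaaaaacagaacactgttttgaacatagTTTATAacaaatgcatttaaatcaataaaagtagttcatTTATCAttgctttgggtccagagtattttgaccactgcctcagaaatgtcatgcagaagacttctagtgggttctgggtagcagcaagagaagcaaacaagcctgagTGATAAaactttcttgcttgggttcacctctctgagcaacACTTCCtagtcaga
Ptgs2, chr1:150099781-150100030, plus strand: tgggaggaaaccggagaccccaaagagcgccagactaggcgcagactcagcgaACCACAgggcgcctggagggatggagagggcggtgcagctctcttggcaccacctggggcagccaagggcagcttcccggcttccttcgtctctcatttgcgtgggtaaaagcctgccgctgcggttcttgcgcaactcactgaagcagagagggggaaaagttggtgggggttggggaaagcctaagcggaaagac
Ptgs1, chr2:36230176-36230425, plus strand: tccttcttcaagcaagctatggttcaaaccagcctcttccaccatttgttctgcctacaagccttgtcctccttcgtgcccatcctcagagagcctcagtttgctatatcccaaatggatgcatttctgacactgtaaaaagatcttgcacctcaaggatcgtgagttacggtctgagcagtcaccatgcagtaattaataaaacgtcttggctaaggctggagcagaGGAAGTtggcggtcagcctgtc
Tbxas1, chr6:38918736-38918985, plus strand: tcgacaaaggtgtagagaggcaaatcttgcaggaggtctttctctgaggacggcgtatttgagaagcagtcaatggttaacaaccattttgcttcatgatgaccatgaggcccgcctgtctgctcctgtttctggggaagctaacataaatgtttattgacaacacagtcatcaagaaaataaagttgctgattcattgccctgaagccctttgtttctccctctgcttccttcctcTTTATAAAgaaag
Alox12, chr11:70255371-70255620, minus strand: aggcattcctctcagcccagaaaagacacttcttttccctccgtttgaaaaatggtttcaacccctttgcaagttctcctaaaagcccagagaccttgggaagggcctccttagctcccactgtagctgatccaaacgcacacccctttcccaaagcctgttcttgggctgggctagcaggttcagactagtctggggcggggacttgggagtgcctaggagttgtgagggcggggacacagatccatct
The upstream windows of Pla2g4a at its outer start and of Alox12 held none of these motifs. The second start of Pla2g4a, inside the gene, had 2 GATA, 2 ETS and 1 TATA match. Ptgs1 had 1 ETS match, first base 22 bases before the start, and Ptgs2 1 RUNX match. Tbxas1 had TATAAA on both strands in 1 overlapping stretch, from 13 bases before the start. Among 32851 windows of this length in the same table, 26.5% held a GATA match, 19.7% an ETS match, 14.0% a RUNX match and 12.4% a TATA match. These are matches of letters and not sites. The table held windows for 9 of the 10 genes, with Alox5ap the exception.

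Total counts ran from 19431863 to 25029931 per library at P7 and from 19541997 to 23291269 in adults, and a gene without counts could have had 0.120 to 0.154 CPM at most, taken as 3 counts (CPM is the count relative to the library total). The 18 platelet marker genes of a list, Pf4 and Itga2b among them, were all detected and held 6.38 to 9.26% of the counts of a P7 library and 6.48 to 9.28% of those of an adult library. Levels below are CPM scaled with TMM factors, which correct for the make-up of each library. Age differences are log2 fold changes, P7 over adult, with their standard error (SE), from edgeR's quasi-likelihood test across 8198 genes that passed a filter on low counts. A gene was called when its p-value, adjusted by Benjamini-Hochberg over these genes, was under 0.05. Of the 18 platelet markers, all tested, 6 were called higher and 4 lower at P7, where 27.7% of all tested genes were called. Their similar summed share therefore does not mean that single markers were alike at both ages. The TMM-scaled profiles of libraries of 1 age correlated at 0.94 to 0.97 and those of different ages at 0.90 to 0.93, and no pair of libraries agreed within sampling noise.

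Within the pathway, the phospholipase gene at its entry and Alox5ap fell at P7, and the thromboxane synthase gene rose. The cyclooxygenase-1 and 12-lipoxygenase genes were not called. Of the 10 genes 8 passed the filter, and of these 1 was called higher (Tbxas1) and 2 lower (Pla2g4a and Alox5ap). Of all tested genes 27.7% were called, 13.8% as higher and 13.9% as lower, so 3 calls among 8 genes are near the background. Groups did not overlap for 4 of the 8, Pla2g4a, Tbxas1, Alox5ap and Ptgir, against 19.8% of all tested genes. P7 lay above in 1 of them and below in 3, against 10.1 and 9.76% of all tested genes. The median log2 fold change of the 8 was -0.08, and that of all tested genes 0.05. Ptgs2 and Ltc4s did not pass the filter and were not tested.

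**Figure D1:**
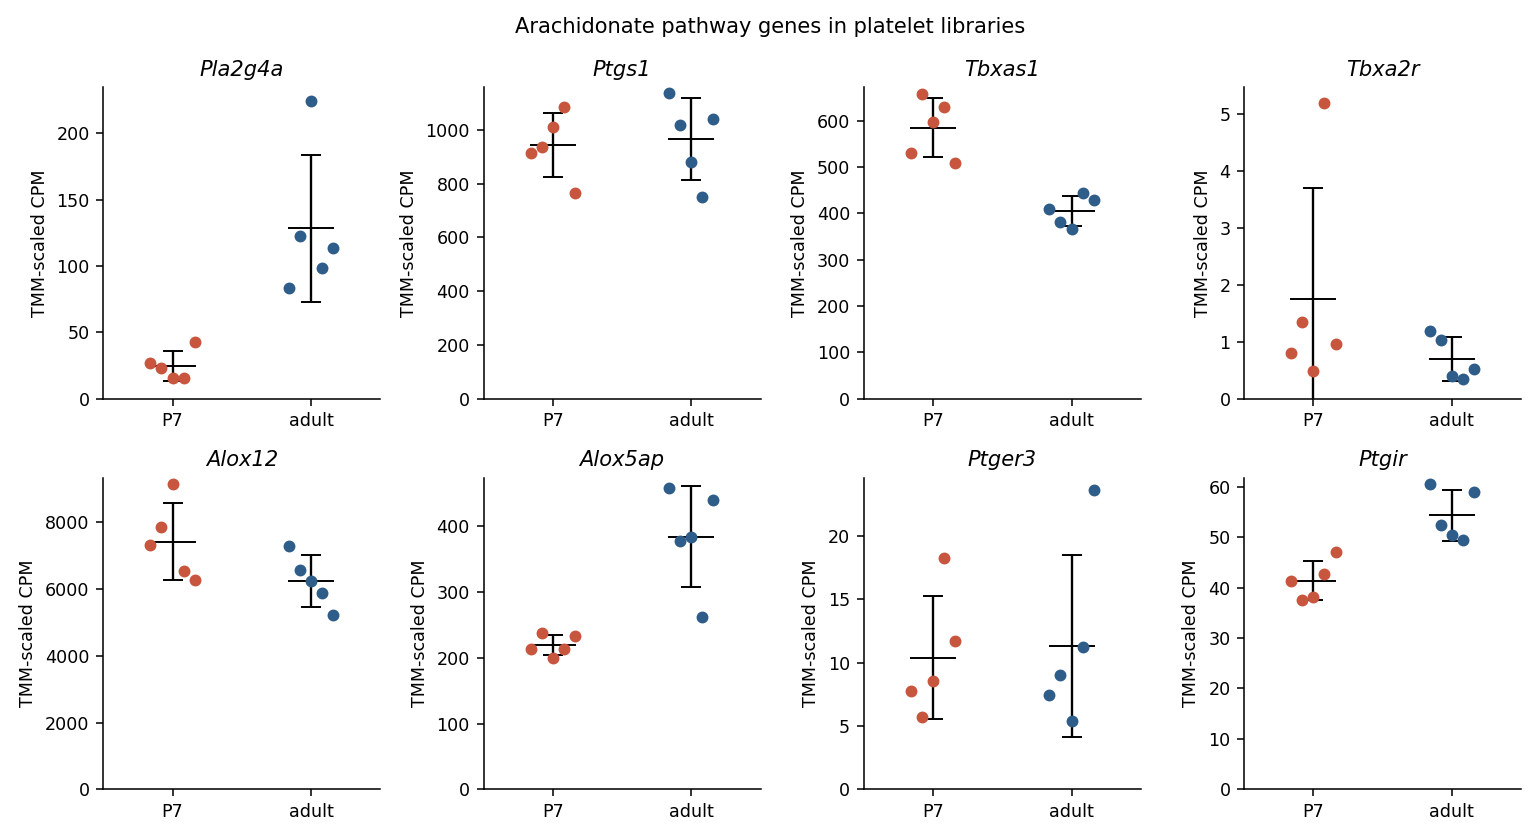
TMM-scaled CPM of the 8 tested genes, with 1 point per library, P7 left and adult right, and bars for the mean ± SD (n = 5 each). The P7 points of Pla2g4a, Alox5ap and Ptgir lie below, and those of Tbxas1 above, all adult points, while the ages overlap for Ptgs1, Alox12, Ptger3 and Tbxa2r.

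Pla2g4a had 26.6, 23.4, 15.3, 15.7 and 43.0 CPM in P7 A, B, C, E and I, against 83.1, 122, 224, 98.3 and 113 CPM in adult A, B, C, G and H. Each P7 library was below each adult library, with a gap between P7 I and adult A. The means were 24.8 ± 11.3 CPM in P7 libraries, against 128 ± 55.6 CPM in adult libraries (SD, n = 5 per age). The log2 fold change of Pla2g4a was -2.37 ± 0.33 (SE, edgeR quasi-likelihood adjusted p = 0.000179), a 5.17-fold lower level. Pla2g4a kept its call without any 1 library, at -2.67 to -2.08. Spread within an age was wide for this gene, with a coefficient of variation of 45.4% at P7 and 43.4% in adults.

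Fold changes of all tested genes followed the GC content of the longest annotated transcript, with a rank correlation of 0.27 (Spearman, 8028 genes of the same 10 libraries, which are not independent points). Pla2g4a has 44.1% GC, the lowest of the 8 tested genes. With the GC trend of each library removed, its log2 fold change was -2.24 and still called (edgeR adjusted p = 0.000284).

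Ptgs2 lies next to Pla2g4a on chromosome 1 in the RefSeq annotation, with 1 pseudogene and 1 long non-coding RNA gene between them. It had 0 counts in all 10 libraries. Summed over an age, this allows up to 0.0265 CPM for P7 and 0.0279 CPM for adults. Of the non-coding neighbour Ptgs2os, libraries held 0 to 2 counts. Pla2g4a beside it had 381 to 941 counts in P7 libraries and 1742 to 4598 in adult libraries.

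Ptgs1 had 915, 937, 1009, 1085 and 765 CPM in P7 A, B, C, E and I, against 1138, 1018, 881, 748 and 1039 CPM in adult A, B, C, G and H. The ages overlapped over most of their range. The log2 fold change of Ptgs1 was -0.03 ± 0.14 (SE, edgeR quasi-likelihood adjusted p = 0.88), with a 95% interval of -0.34 to 0.27, and its sign turned under some scalings.

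Tbxas1 had 531, 658, 597, 629.9 and 509 CPM in P7 A, B, C, E and I, against 409.5, 382, 365, 443 and 429.7 CPM in adult A, B, C, G and H. The lowest P7 library (I) was above the highest adult one (G). Thromboxane synthase transcripts averaged 585 ± 63.5 CPM in P7 libraries, against 406 ± 32.3 CPM in adult libraries (SD, n = 5 per age). The log2 fold change of Tbxas1 was 0.53 ± 0.12 (SE, edgeR quasi-likelihood adjusted p = 0.0059), or 1.44-fold, and it kept its call without any 1 library, at 0.48 to 0.57. The call was lost over the 6 libraries lettered A to C with the letter as a block, at 0.59 (edgeR adjusted p = 0.05003), and kept in the same 6 without it, at 0.59 (edgeR adjusted p = 0.017). The annotated gene Gm42962, antisense to Tbxas1, shares 144 exon bases with it and had 27 to 81 counts against the 7490 to 15742 of Tbxas1. The sources used here do not give whether counting used strand.

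Alox12 was the most abundant of the 10 genes, at 7322, 7851, 9131, 6543 and 6255 CPM in P7 A, B, C, E and I, against 7301, 6578, 6226, 5871 and 5206 CPM in adult A, B, C, G and H. It took 0.602 to 0.908% of all counts at P7 and 0.464 to 0.697% in adults. P7 B and C exceeded all adult libraries and P7 A exceeded the highest adult library (A) narrowly, while P7 E and I lay inside the adult range. The log2 fold change of Alox12 was 0.25 ± 0.13 (SE, edgeR quasi-likelihood adjusted p = 0.18), with a 95% interval of -0.03 to 0.53. With the GC trend removed it was 0.08, and it was not called in any of 20 alternative settings.

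**Figure D2:**
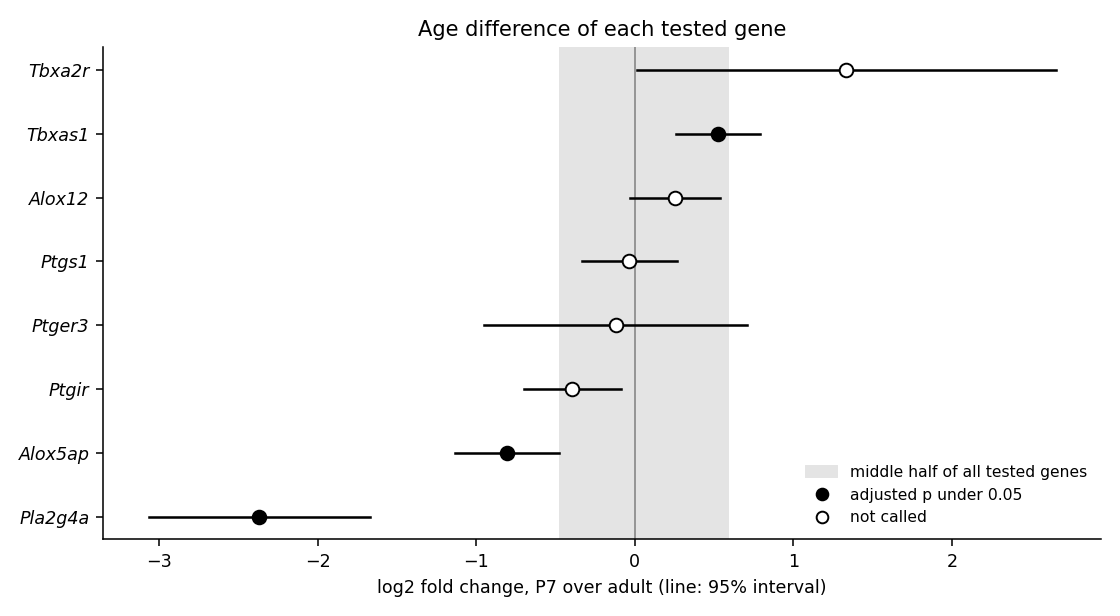
Log2 fold change, P7 over adult, of each tested gene with its 95% interval (filled where the adjusted p was under 0.05), over a grey band that spans the middle 50% of all tested genes. Pla2g4a, at -2.37, and Alox5ap, at -0.81, lie left of the band, and Tbxas1, at 0.53, lies within it.

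Because counts of 2 genes in 1 library need no scaling between libraries, 4 ratios were compared as log2 count ratios with 0.5 counts added. A GC trend does not cancel in a ratio of genes of unlike GC, and the ratios were not corrected for it. Pla2g4a has 44.1% GC against 51.0% for Ptgs1, and Tbxa2r 62.5% against 47.2% for Ptger3. The ratio of Pla2g4a to Ptgs1, substrate release over cyclooxygenase, averaged -5.34 ± 0.80 in P7 libraries, against -2.99 ± 0.65 in adult libraries (SD, n = 5 per age). Every P7 value, -6.11 to -4.15, was below every adult value, -3.77 to -1.97. The difference was -2.36, at a two-sided exact permutation p of 0.0079, the smallest that the splits of 5 against 5 libraries can give, and 0.032 adjusted over the 4 ratios. It ranged from -2.66 to -2.11 with 1 library left out. The call was lost without adult A, B, C or H (exact permutation adjusted p = 0.0635), at differences of -2.56 to -2.11. As the ages did not overlap over all 10 libraries, they could not overlap in these sets. Permutation p-values of so few libraries move in coarse steps.

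The ratio of Tbxas1 to Ptgs1 averaged -0.68 ± 0.13 in P7 libraries, against -1.24 ± 0.28 in adult libraries (SD, n = 5 per age), a difference of 0.55 (two-sided exact permutation p = 0.032, adjusted 0.0635). Adult G, at -0.76, stood above the other adult libraries and within the P7 range of -0.78 to -0.51. Without adult G the difference was 0.67, and without P7 E 0.58, and these passed (exact permutation adjusted p = 0.032 and 0.042).

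The ratio of Alox12 to Ptgs1, lipoxygenase over cyclooxygenase, averaged 2.97 ± 0.22 in P7 libraries, against 2.698 ± 0.24 in adult libraries (SD, n = 5 per age). Its difference of 0.28 did not pass (two-sided exact permutation p = 0.11, adjusted 0.15). Without P7 E, the lowest P7 library at 2.59, it was 0.37 and passed (exact permutation adjusted p = 0.032).

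**Figure D3:**
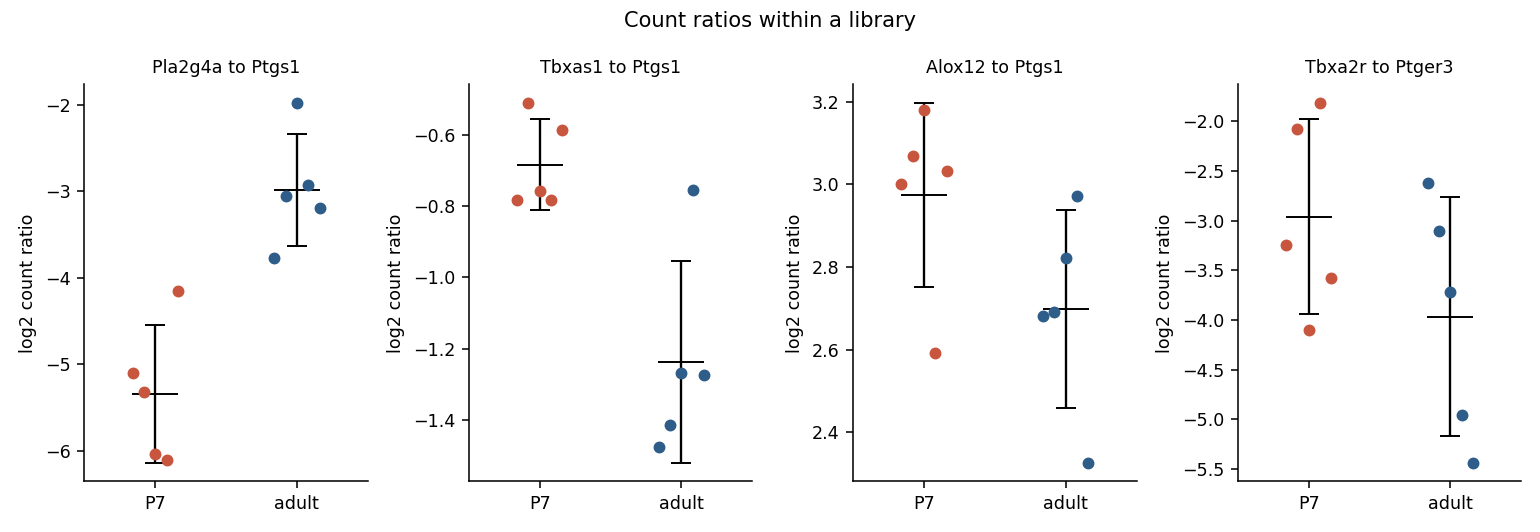
Log2 count ratios within a library for 4 gene pairs, with 1 point per library, P7 left and adult right, and bars for the mean ± SD (n = 5 each). The Pla2g4a to Ptgs1 ratios of the ages do not overlap, and adult G is the 1 adult library that reaches the P7 points for Tbxas1 to Ptgs1.

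Transcripts of the thromboxane receptor were few. Tbxa2r had 0.805, 1.34, 0.482, 5.20 and 0.959 CPM in P7 A, B, C, E and I, against 1.19, 1.03, 0.390, 0.343 and 0.516 CPM in adult A, B, C, G and H. P7 E, with 130 counts, stood apart from the 8 to 26 counts of the other 9 libraries. The log2 fold change of Tbxa2r was 1.33 ± 0.62 (SE, edgeR quasi-likelihood adjusted p = 0.13), and without P7 E it was 0.33 (edgeR adjusted p = 0.70). With the GC trend removed it was 0.85 (edgeR adjusted p = 0.34), over all 10 libraries.

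Ptger3 had 7.81, 5.73, 8.56, 18.3 and 11.7 CPM in P7 A, B, C, E and I, against 7.45, 9.03, 5.41, 11.3 and 23.6 CPM in adult A, B, C, G and H. The ages overlapped, with 1 high library at each age, P7 E and adult H. The log2 fold change of Ptger3 was -0.12 ± 0.39 (SE, edgeR quasi-likelihood adjusted p = 0.85), with a 95% interval of -0.95 to 0.71. Its sign turned without adult H, at 0.32, and without P7 B, at 0.03. The ratio of Tbxa2r to Ptger3, both receptors that promote activation, averaged -2.96 ± 0.98 in P7 libraries, against -3.97 ± 1.202 in adult libraries (SD, n = 5 per age), and the difference of 1.01 did not pass (two-sided exact permutation p = 0.19, also adjusted). Without adult H the difference was 0.64, and over the 6 libraries lettered A to C it was 0.0069.

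Ptgir, the receptor gene of the inhibitory prostanoid, had 41.3, 37.5, 38.2, 42.7 and 47.1 CPM in P7 A, B, C, E and I, against 60.6, 52.4, 50.4, 49.4 and 58.9 CPM in adult A, B, C, G and H. The highest P7 library (I) was below the lowest adult one (G). Its log2 fold change was -0.39 ± 0.14 (SE, edgeR quasi-likelihood adjusted p = 0.0535), just outside the threshold, with a 95% interval of -0.70 to -0.09. Ptgir was called without P7 I or adult G, at -0.45 each (edgeR adjusted p = 0.032 and 0.044). It was also called with the GC trend removed, at -0.64, with RLE factors, and by DESeq2 and limma-voom. The other 14 of 20 alternative settings left it uncalled, with adjusted p up to 0.156 in edgeR without a filter on low counts.

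Alox5ap had 214, 238, 199.5, 213 and 233 CPM in P7 A, B, C, E and I, against 458, 377, 383, 262 and 439.9 CPM in adult A, B, C, G and H. All P7 libraries lay close together and below adult G, the lowest adult library. Means were 219 ± 15.7 CPM in P7 libraries, against 384 ± 76.8 CPM in adult libraries (SD, n = 5 per age). The log2 fold change of Alox5ap was -0.81 ± 0.15 (SE, edgeR quasi-likelihood adjusted p = 0.00148), a 1.75-fold lower level. It kept its call in each of 20 alternative settings, at -0.99 to -0.74. The antisense gene Gm19719 shares 189 exon bases with Alox5ap and had 0 to 2 counts.

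Alox5ap is known from myeloid cells, so myeloid markers are given beside it. Monocyte and macrophage markers, 16 genes, held 0.216 to 0.344% of the counts of a P7 library and 0.292 to 0.580% of those of an adult library, and 3 of them were tested, of which Lyz2 fell, at -0.66. Lyz2 alone had 49045 to 85842 counts in P7 libraries and 67898 to 127443 in adult libraries, while the other 15 genes, Csf1r and Adgre1 among them, had at most 58 counts in a P7 and 117 in an adult library. Neutrophil markers, 16 genes with Ly6g and Cxcr2 at 0, held 0.000404 to 0.000809% of the counts of a P7 library and 0.000148 to 0.000209% of those of an adult library. Of these, 2 were tested, and Prtn3 was called higher, at 1.85, with 1.53 CPM for P7 and 0.424 CPM for adults. The part of myeloid cells in the Alox5ap difference was not tested.

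Ltc4s had 0, 0, 4, 4 and 0 counts in P7 A, B, C, E and I, against 3, 2, 1, 1 and 0 counts in adult A, B, C, G and H. At 8 counts over all P7 and 7 over all adult libraries, an age difference was not detectable at this depth. The antisense gene Gm26542 shares 268 exon bases with Ltc4s and had 8 to 58 counts.

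To compare levels between genes, TMM-scaled CPM were divided by the summed exon length of each gene in the GENCODE M21 annotation (CPM per kb), which may differ from the annotation used for counting. This length joins the exons of all annotated transcripts and can exceed that of the transcript present, so the order below depends on it. Tbxas1, at 9094 bases, had more CPM than Alox5ap, at 1420 bases, for P7 (585 against 219) and adults (406 against 384). Alox12 led at both ages, at 1817 ± 280 CPM per kb at P7 and 1527 ± 191 CPM per kb in adult libraries (SD, 5 per age). It ranked between 24 and 36 among 49853 genes in P7 libraries and between 33 and 46 in adult ones. At P7 the order then ran Ptgs1 (242 CPM per kb), Alox5ap (155), Tbxas1 (64.3), Ptgir (12.4), Pla2g4a (3.88), Ptger3 (1.83), Tbxa2r (0.916) and Ltc4s (0.0633), with Ptgs2 at 0. The adult order was Alox5ap (270.3 CPM per kb), Ptgs1 (248), Tbxas1 (44.6), Pla2g4a (20.1), Ptgir (16.3), Ptger3 (1.997), Tbxa2r (0.362) and Ltc4s (0.0633), again with Ptgs2 at 0.

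Neighbours in the P7 order overlapped across libraries for Pla2g4a with Ptger3, Ptger3 with Tbxa2r and Ltc4s with Ptgs2. Neighbours in the adult order overlapped for Alox5ap with Ptgs1, Pla2g4a with Ptgir and Ltc4s with Ptgs2. The ranges of all other neighbours were separate. Pla2g4a was below Ptgir in each P7 library and above it in 4 of 5 adult libraries, and Alox5ap was below Ptgs1 in each P7 library and above it in 4 of 5 adult libraries.

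**Figure D4:**
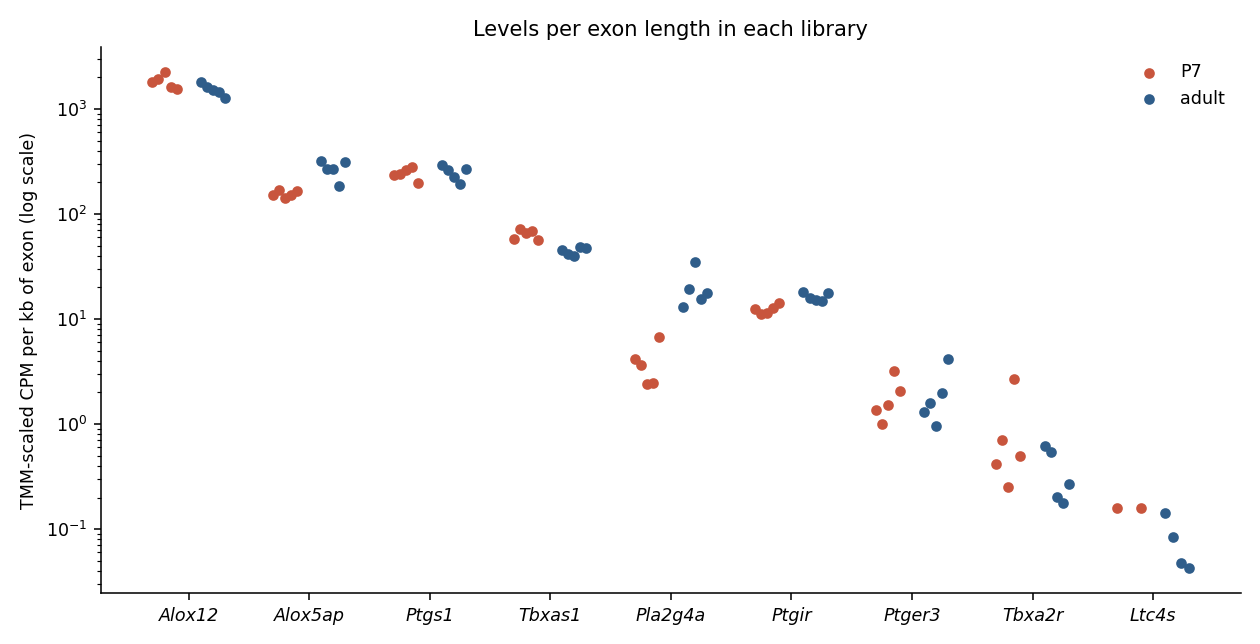
TMM-scaled CPM per kb of exon on a log axis for the 9 genes with any counts, ordered by adult mean, with 1 point per library and P7 left of adult for each gene. Libraries with 0 counts of Ltc4s have no point, Alox12 is highest at both ages, and Pla2g4a shows the widest gap between the ages among tested genes whose ages do not overlap.

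Among 1935 other named genes averaging 20 CPM or more, those whose log2 CPM correlated best with each called gene over the 10 libraries were looked up. With 2 separate age groups such a correlation mostly repeats the age difference, and it is given as a description. Nearest to Pla2g4a were Cnbp (Pearson's r = 0.99), the phosphoinositide phosphatase gene Mtmr1 (0.98) and the sialomucin gene Cd164 (0.97), all lower at P7. Nearest to Tbxas1 were Cotl1 (0.98), whose product binds 5-lipoxygenase, Reep2 (0.97) and the G protein gene Gnai2 (0.96), all higher at P7. Nearest to Alox5ap were the transcription factor gene Runx1, the sorting nexin gene Snx3 and the tetraspanin gene Cd9 (0.96, 0.96 and 0.95), all lower at P7.

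Other genes around these steps were taken from lists drawn up by known role, and the counts of called genes below stand beside the 27.7% called among all tested genes (13.8% higher, 13.9% lower). That share covers genes of all levels. The median log2 fold change of all genes was 0.24 without a filter, 0.05 with the filter used here and -0.01 with a filter of 10 CPM, so less abundant genes leaned to P7. A gene rare at one age can pass the filter through the other age alone, which favours a call in that direction. Of phospholipases A2 other than Pla2g4a, 21 had a row and 9 were at 0 in all libraries. Of 5 tested 0 were higher and 1 lower, the calcium-independent phospholipase gene Pnpla8, at 363 ± 79.4 CPM in P7 libraries, against 822 ± 165 CPM in adult libraries (SD, n = 5 per age) and a log2 fold change of -1.18. The median log2 fold change of the 5 was -0.25. Kinases, annexins and other genes linked to cytosolic phospholipase A2, MAP kinase kinases further upstream among them, had 2 higher and 2 lower of 16 tested. This share is near the 27.7% of all tested genes, and the median log2 fold change was -0.02. Mknk1, a kinase reported to phosphorylate this phospholipase, had a log2 fold change of 1.42, Map2k2, a MAP kinase kinase gene, one of 0.69, and Prkcd, a protein kinase C gene, one of -0.84. Anxa2, an annexin gene, was the other one lower, at -1.16. The MAP kinase genes Mapk14 and Mapk3, whose kinases phosphorylate the Pla2g4a product, had log2 fold changes of -0.21 and 0.04 and were not called.

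Of genes that supply arachidonic acid to phospholipids, 3 were higher and 0 lower of 13 tested, a share near the 27.7% of all tested genes, with a median log2 fold change of 0.66. Lpcat3, which encodes an acyltransferase that puts arachidonic acid into phospholipids, had 49.9 ± 19.5 CPM in P7 libraries, against 11.2 ± 3.77 CPM in adult libraries (SD, n = 5 per age) and rose by 2.15 on the log2 scale. Fabp5, a fatty acid binding protein gene, rose by 3.28 at low levels of 1.82 CPM for P7 and 0.186 CPM for adults, and Agpat3, another acyltransferase gene, rose by 0.82. With 1 to 7 counts in adult libraries, Fabp5 passed the filter through the P7 libraries. The diacylglycerol lipase gene Daglb, of the route that frees arachidonic acid through diacylglycerol, was the 1 higher of 6 tested in its list, at 1.06, with 0 lower and a median log2 fold change of 0.53.

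Prostanoid synthases other than Tbxas1 had 1 higher and 2 lower of 4 tested, all at low levels, with a median log2 fold change of -0.97. Ptges3, of prostaglandin E2 synthesis, had a log2 fold change of -0.94 with 1.83 CPM for P7 and 3.53 CPM for adults. Ptges, the inducible synthase gene of the same step, was at -1.61, and Akr1b3, an aldose reductase gene, rose by 1.96. With 4 to 7 counts in P7 libraries, Ptges passed the filter through the adult libraries. Akr1b3, with 5 to 17 counts in adult libraries, passed it through the P7 libraries. No transporter or inactivating enzyme was called among 5 tested (median log2 fold change -0.03), of which the exporter gene Abcc4 was most abundant, with a log2 fold change of -0.64 (edgeR quasi-likelihood adjusted p = 0.0546). The unadjusted p of Abcc4 was 0.0156 (edgeR quasi-likelihood test), and the gene was not called. Of the other prostanoid receptors, 1 was tested, Ptger4, at 1.10 (edgeR adjusted p = 0.25). Ptgdr and Ptgdr2, the prostaglandin D2 receptor genes, were at 0 in all libraries.

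Other lipoxygenases and peroxidases had 4 higher and 1 lower of 6 tested, with a median log2 fold change of 1.502. Alox15, the 12/15-lipoxygenase gene of the mouse, rose by 3.57, at 3.13 CPM for P7 and 0.260 CPM for adults, and Alox5 by 2.60, at 2.16 CPM for P7 and 0.355 CPM for adults. Adult libraries held 3 to 8 counts of Alox15 and 0 to 12 of Alox5, so both passed the filter through the P7 libraries, where they were high. Gpx4, which encodes a peroxidase that reduces lipid hydroperoxides, rose by 0.62 and Gpx3, of a secreted peroxidase, by 2.38. Prdx6, a peroxiredoxin gene whose product also has phospholipase A2 activity, had 2549 ± 315 CPM in P7 libraries, against 5724 ± 786 CPM in adult libraries (SD, n = 5 per age) and a log2 fold change of -1.17.

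The list of leukotriene enzymes and receptors had 5 higher and 1 lower of 7 tested, with a median log2 fold change of 1.65. It also held Cotl1, which is neither, and whose product binds 5-lipoxygenase. The leukotriene B4 receptor genes Ltb4r1 and Ltb4r2 rose by 2.53 and 2.88, the leukotriene A4 hydrolase gene Lta4h by 1.59, the glutathione transferase gene Mgst3 by 1.65 and Cotl1 by 2.23. Mean levels of the first 4 were low, at 1.57 to 10.3 CPM for P7 and 0.514 to 3.26 CPM for adults. Less abundant genes leaned to P7 among all genes as well, so these rises are not particular to the list. Lta4h and Ltb4r2, with 2 to 19 and 2 to 40 counts in adult libraries, passed the filter through the P7 libraries. Cysltr2, a receptor gene for cysteinyl leukotrienes, had 22.2 ± 3.805 CPM in P7 libraries, against 85.6 ± 14.3 CPM in adult libraries (SD, n = 5 per age) and a log2 fold change of -1.95. Alox5, Alox15 and the Ltb4r genes are also genes of leukocytes. Beside them stand the neutrophil marker shares above and mast cell and basophil markers, 14 genes with Cd200r3 at 0, at 0.00701 to 0.00928% of the counts of a P7 library and 0.00818 to 0.0117% of those of an adult library. Nearly all of that share was Gata2, a gene that megakaryocytes also use, with 78.4 CPM for P7 and 91.1 CPM for adults. Of the others, Hdc averaged 2.98 CPM for P7 and 4.90 CPM for adults, and Cma1 0.703 CPM for P7 and 0.351 CPM for adults, and neither was called. Tpsb2 had 1 to 20 counts in P7 libraries and 0 in all adult libraries, and was not tested. B, T and NK cell markers, 15 genes, held 0.00137 to 0.00308% of the counts of a P7 library and 0.00152 to 0.00222% of those of an adult library. Of 5 tested 1 was higher, Ighm at 1.47, and 1 lower, Nkg7 at -1.38. Erythroid markers, 20 genes of which 13 were tested, had 3 higher and 0 lower and held 0.108 to 0.246% of the counts of a P7 library and 0.0554 to 0.159% of those of an adult library. Endothelial markers, 12 genes of which 8 were tested, had 2 higher and 0 lower. They held 0.115 to 0.172% of the counts of a P7 library and 0.129 to 0.155% of those of an adult library. The part of other blood cells in these changes was not tested.

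Downstream of the thromboxane receptor 0 genes were higher and 4 lower of 16 tested, a share near the 27.7% of all tested genes called in either direction, with a median log2 fold change of -0.16. Rock2, a kinase gene of cytoskeletal contraction, fell by 0.76, Rhoa by 0.41 and the receptor kinase gene Grk6 by 1.12, and the calcium channel gene Itpr2 by 1.32. The G protein genes Gnaq and Gna13, which couple this receptor, had log2 fold changes of -0.21 and 0.10 and were not called. Of the cytochrome P450 list 1 gene was tested, the reductase gene Por, at 0.30 (edgeR quasi-likelihood adjusted p = 0.35), and 5 of its 15 genes were at 0.

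**Figure D5:**
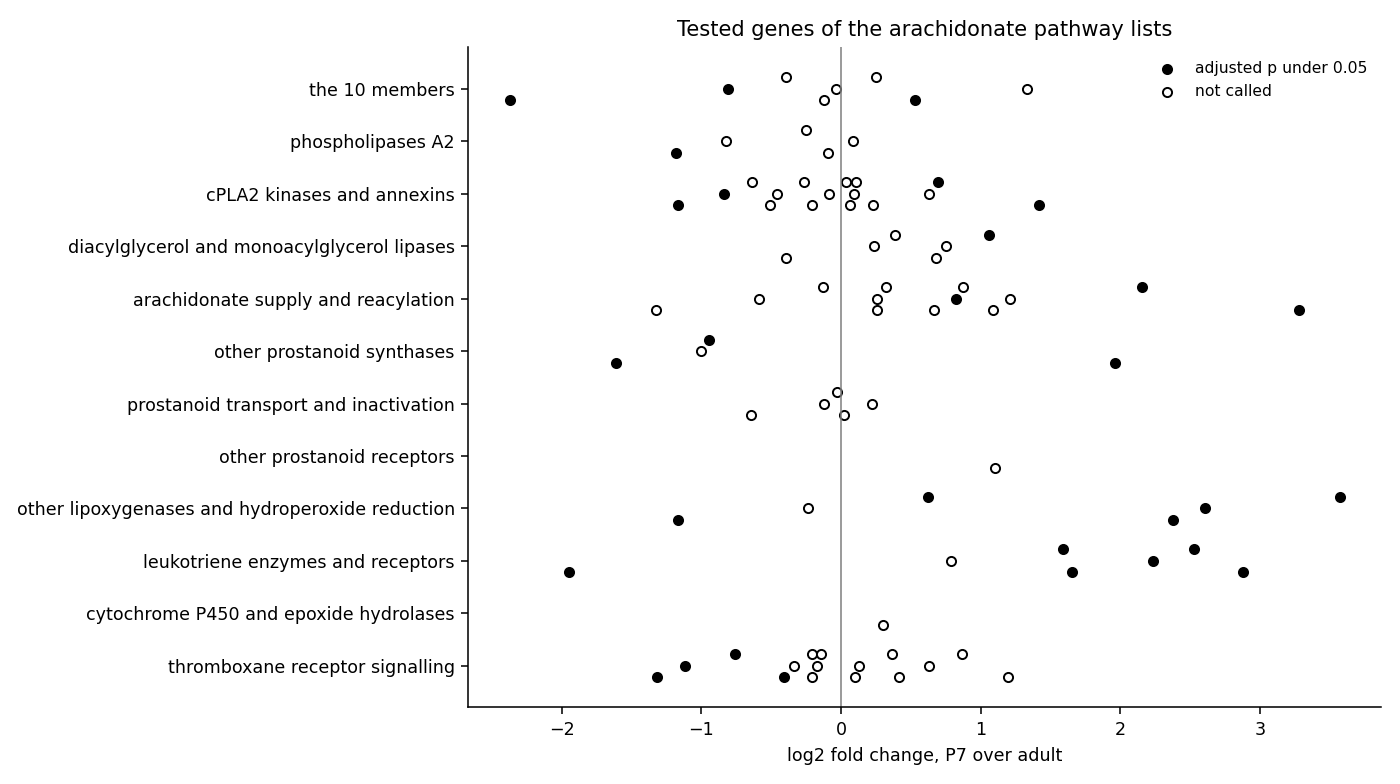
Log2 fold change, P7 over adult, of each tested gene in the lists (1 point per gene, filled where the adjusted p was under 0.05; points are spread vertically only to separate them). Filled points lie right of 0 for 5 of 6 called genes of the leukotriene list, Cotl1 among them and most at low levels. They lie left of 0 for the 4 called of 16 tested genes of thromboxane receptor signalling. Of all tested genes, 27.7% were called.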

How the data were processed

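The authors deposited whole-number read counts, 1 row per gene symbol and 1 column per library, without normalization. The submitters' processing notes name STAR 2.7.9a, Salmon 1.5.2, fastp 0.23.1, featureCounts and Subread 2.0.1 and no order or role for them. Genome build and strand setting were not given in the sources used here. Per the labels' protocols, cDNA was amplified by SMARTer chemistry, and they name no molecular identifiers, so the limits given for 0 counts cover counting error alone, and genes that overlap can share reads.

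Counts were filtered with edgeR's filterByExpr (minimum count 10, minimum total 15), scaled with TMM and tested with robust quasi-likelihood F tests with age as the only term, in edgeR 4.0.16 under R 4.3.3, with limma 3.58.1. SE is the log2 fold change over the square root of F. The 4 ratios were compared with exact permutation tests over samples. DESeq2 1.42.0 and other settings were alternatives, and the tests were tried on simulated data. The 10 genes and all lists were chosen with earlier results of these data known. Named genes were the 10 members, up to 3 called genes of smallest p per pathway list (or the most abundant tested one), and the 3 best-correlated genes of each called member, leaving out unnamed models. Anxa2, Mapk14, Mapk3, Alox5, Gpx4, Lta4h, Mgst3, Ltb4r2, Itpr2, Gnaq, Gna13 and the marker genes were named outside this rule, after their values were seen. Other names of genes in the lists (Pla2g16, Tafazzin, Akr1b1, Fam213b, Ptgr3) had no row and were not used here.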

Additional observations from a re-analysis of the deposited data

Results flagged for a closer look

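In 24 sets of 5 libraries (8 genes and 4 ratios at each age) the gap of the most distant library was compared with the range of its set, a check that flags about 1 set in 20 by chance, and 3 were flagged. Pla2g4a was far higher in adult C than in the other adult libraries, at 224 CPM, and its log2 fold change without adult C was -2.08. Tbxa2r was far higher in P7 E than in the other P7 libraries, at 5.20 CPM. The log2 count ratio of Tbxas1 to Ptgs1 was far higher in adult G than in the other adult libraries, at -0.76.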

How the results depend on the processing

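Over 20 alternative settings Pla2g4a and Alox5ap kept direction and call, and Alox12 stayed uncalled at 0.08 to 0.31. The replicate letters A to C occur at both ages, but deviations of libraries with 1 letter correlated at only -0.04, 0.06 and 0.01, and 1 of 6 libraries correlated best with its own letter, so the letters were not taken to pair libraries. With these 6 libraries and the letter as a replicate block, Tbxas1 was at 0.59 (edgeR quasi-likelihood adjusted p = 0.05003, its highest, the lowest being 0.0011) and was not called, which left 0 members higher. All genes then gave 660 higher and 756 lower calls against 1132 and 1140, and Tbxa2r was at -0.0031. The log2 ratio of Pla2g4a to Ptgs1 was -2.55 and not called, as 3 pairs cannot reach the threshold. The same 6 libraries without the block gave 890 and 996 calls, Tbxas1 at 0.59 (edgeR adjusted p = 0.017) and Tbxa2r at -0.039. A filter of 10 CPM, which tested 2803 genes, gave 569 and 646 calls, and Tbxa2r did not pass it. Ptgir was called with RLE factors (-0.42), DESeq2 (-0.42), limma-voom (-0.39) and the GC trend removed (-0.64), an alternative chosen after seeing the data, and 14 of 20 settings left it uncalled at -0.51 to -0.32. Ptgs1 turned sign with library size only (0.041), upper quartile factors (0.030) and the 10 CPM filter (0.025). With 1 library left out, log2 fold changes ranged from -0.14 to 0.025 for Ptgs1, from -0.45 to 0.32 for Ptger3, from -0.45 to -0.36 for Ptgir and from 0.33 to 1.60 for Tbxa2r. Ratios to Ptgs1 ranged from -2.66 to -2.11 (Pla2g4a), 0.49 to 0.67 (Tbxas1) and 0.18 to 0.37 (Alox12), and that of Tbxa2r to Ptger3 from 0.64 to 1.34. Where a call or sign changed, the cause was not tested. Depth limits Tbxa2r, Ltc4s and Ptgs2.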
